A study of Homo sapiens with 4 samples.

Results

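The kinesin motors measured here are the protein-coding genes whose GENCODE symbol is KIF or KIFC followed by a number. The rule found 42 genes among the 60564 listed in the counts, and 39 of them passed the filter on low counts and were tested with 22555 genes in all. RNA was measured by RNA-seq in Elf1, an established naïve human embryonic stem cell (ESC) line. The 2-D grown cells were adherent on plastic coated with Matrigel, and the 3-D grown cells had been encapsulated as single cells in scaffolds of the polyethylene glycol polymers PEG-8-SH and PEG-8-Acr and kept there for 21 days. Both were kept in ESC expansion medium, and each condition had 2 independent biological replicates of the same line. The line had been maintained on mouse feeder cells and was moved to feeder-free culture before encapsulation.

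Kinesins are ATP-driven proteins that move along microtubules or shorten them. One group builds the mitotic spindle, moves chromosomes and completes cytokinesis, so its RNA is abundant in dividing cells such as ESCs. Another group carries vesicles, organelles, RNA and ciliary proteins, mostly toward microtubule plus ends, and several of its members are known best from neurons. The genes were described as 15 mitotic, 15 transport and 12 other kinesins, and the last class holds every member in neither list.

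Promoters were searched for 2 elements that the rule did not use. The cell cycle genes homology region (CHR), a short element bound by the MuvB core of the DREAM complex, was searched as TTTGAA or TTTAAA on both strands in RefSeq promoters of GRCh38.p14 that run from 250 bases before to 50 bases after each start. It was present in 12 of 15 mitotic kinesin genes (80%), in 2 of 11 transport kinesin genes (18.2%), in 0 of 8 other kinesin genes and in 27.9% of all 27305 genes with a promoter. The CCAAT box, the element of the factor NF-Y, was searched on both strands and was present in 11 of 15 mitotic (73.3%), 4 of 11 transport (36.4%) and 3 of 8 other kinesin genes (37.5%), against 39.7% of all genes. Both elements were present in 10 of the 15 mitotic genes, in 1 transport gene (KIF5B) and in 11.2% of all genes. Among single promoters of the same length, 24% of 35116 held a CHR, 34.6% a CCAAT box and 9.27% both. The 3 mitotic genes without a CHR in these windows were KIF22, KIF2A and KIF2B. Promoters were matched for 34 members. Those of KIF5A, KIF13B, KIF19, KIF21B, KIF26B, KIF27, KIFC2 and KIFC3 had no entry.

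The 100 bases directly before the start are shown for 4 mitotic kinesins, to let their spacing be compared, and for KIF1C, a transport kinesin that was higher in 3-D grown cells, as a stretch without either element. Each is written 5′ to 3′ on the strand of the gene, and capitals mark CHR elements and CCAAT boxes on either strand (TTCAAA and ATTGG are the reverse strand forms).
KIF4A, chrX:70290004-70290103, plus strand: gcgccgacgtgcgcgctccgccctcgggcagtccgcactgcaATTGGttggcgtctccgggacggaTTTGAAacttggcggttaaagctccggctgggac
KIF20A, chr5:138179012-138179111, plus strand: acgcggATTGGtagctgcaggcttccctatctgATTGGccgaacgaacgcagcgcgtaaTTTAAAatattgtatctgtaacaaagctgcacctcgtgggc
KIF11, chr10:92593030-92593129, plus strand: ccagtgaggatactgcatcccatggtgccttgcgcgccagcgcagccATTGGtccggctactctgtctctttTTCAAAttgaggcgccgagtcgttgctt
KIF18A, chr11:28108157-28108256, minus strand: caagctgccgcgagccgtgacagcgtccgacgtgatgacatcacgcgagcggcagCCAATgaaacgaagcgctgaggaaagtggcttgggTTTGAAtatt
KIF1C, chr17:4997850-4997949, plus strand: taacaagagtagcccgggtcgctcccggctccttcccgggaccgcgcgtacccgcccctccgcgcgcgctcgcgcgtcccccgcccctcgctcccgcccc
In each of the 4 mitotic stretches, which were picked and do not stand for the class, the CCAAT box lay before the CHR. The full windows of KIF14 and KIF23 held a CHR before the CCAAT box, at −198 and −211, and another after it. Those of KIF15 and KIF2C held a CHR but no CCAAT box. Counted from the start, with the base before it at −1, the CHR began at −34 in KIF4A, at −41 in KIF20A, at −28 in KIF11 and at −10 in KIF18A. The CCAAT box began at −58, at −94 and −67, at −53 and at −45 in the same genes. A match is a description of the sequence and no evidence of binding.

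**Figure D1:**
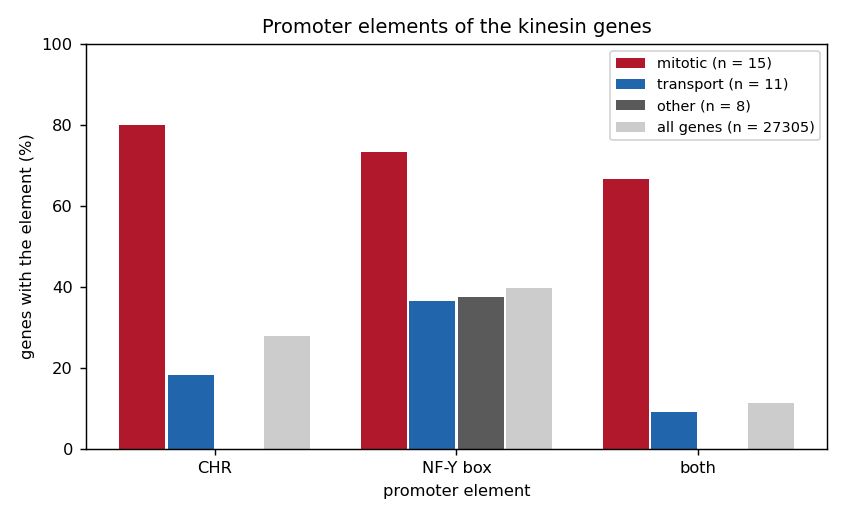
Share of genes (vertical axis, percent) whose promoter held a CHR, an NF-Y box (CCAAT) or both, for 15 mitotic, 11 transport and 8 other kinesin genes and for all 27305 genes with a promoter. The bars of the mitotic class stand at 80%, 73.3% and 66.7%, above the 27.9%, 39.7% and 11.2% of all genes.

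Levels differed far more between kinesins than between culture conditions. Compared per length, as CPM (counts scaled to the normalized size of each library) per kilobase of exon, means over the 4 libraries exceeded 1 in 34 of the 42 genes and 10 in 14 of them, of which 10 were mitotic, 4 transport and 0 other kinesins. The class medians of this level were 11.6 for mitotic, 5.585 for transport and 1.492 for other kinesins. These levels depended on the length used. By the longest transcript in place of all exons, 20 genes exceeded 10, of which 12 were mitotic, 7 transport and 1 other, and the medians were 14.7, 9.22 and 2.07. KIF5B, the kinesin-1 heavy chain found in most cell types, had the highest level at 37.3 CPM per kilobase. It was followed by KIF20A (25.9), KIF4A (25.8) and KIF11 (25.7), and the order among these 3 genes was within the spread of their libraries. By the longest transcript KIF5B led too, and KIF23 came next at 32.6. Summed over a class, normalized CPM of the mitotic kinesins was 1108 and 1107 in 2-D and 1151 and 1146 in 3-D, a mean 3.70% higher in 3-D. The transport kinesins summed to 1313.5 and 1310.3 in 2-D and to 1349 and 1359 in 3-D, a mean 3.22% higher, and the other kinesins to 223 and 222.6 in 2-D and to 227 and 237 in 3-D, a mean 4.02% higher. Both 3-D libraries lay above both 2-D libraries in each class, but with scaling to library size alone the 3 differences were −0.805%, −1.26% and −0.491%, so the direction depended on the scaling. The ratio of summed mitotic to summed transport CPM does not depend on it and was 0.844 and 0.845 in 2-D and 0.853 and 0.843 in 3-D, so the conditions overlapped. In bulk RNA, more cells of a type and more RNA per cell cannot be told apart.

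**Figure D2:**
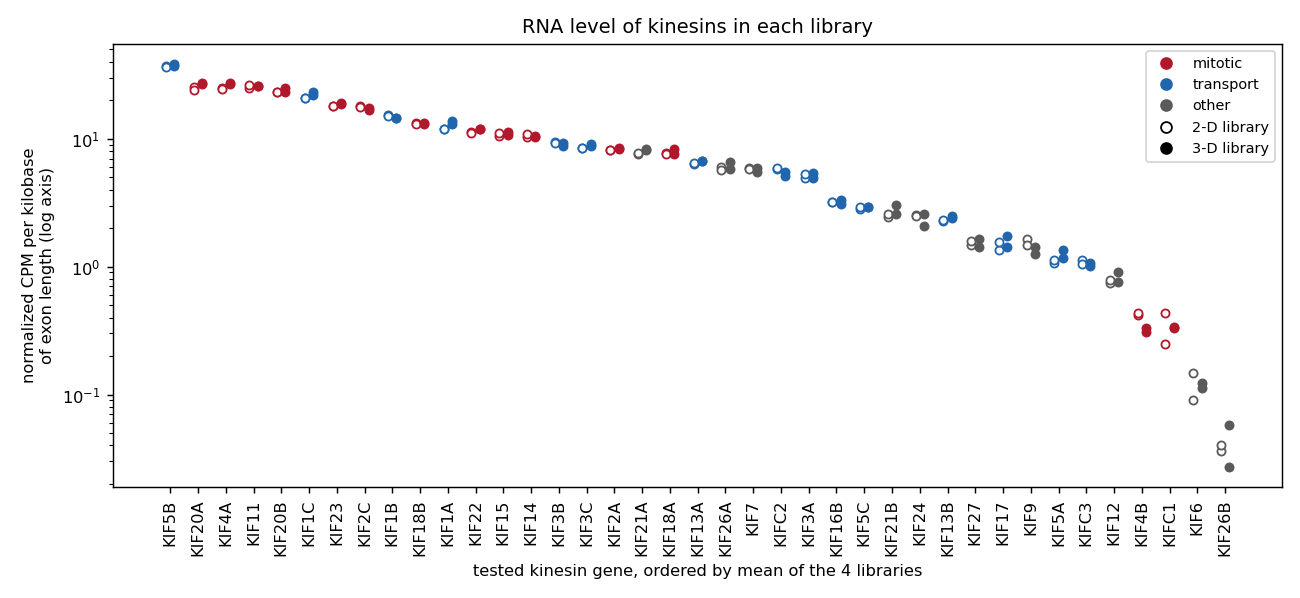
Level of the 39 tested kinesins in each library, as normalized CPM per kilobase of exon length (vertical, log axis), ordered along the horizontal axis by the mean of the 4 libraries. Open points are 2-D and filled points 3-D libraries, and colors mark the classes. KIF5B leads at 37.3, and the points of the 2 conditions lie close together beside the differences between genes.

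With edgeR's quasi-likelihood test and an adjusted p (Benjamini-Hochberg) below 0.05, 3 of the 39 tested kinesins (7.69%) were called, against 7.9% of all tested genes, so the share was near the background. The 3 genes, KIF4A, KIF1A and KIF1C, were higher in 3-D grown cells, where 4.54% of all tested genes were higher. No kinesin was called lower, against 3.36% of all tested genes, and 1 was lower at an unadjusted p below 0.05, KIF1B, against 10.2%. At that unadjusted level, which 21.3% of all tested genes passed, 8 kinesins were higher, against 11.1%. DESeq2 called 1 kinesin, KIF1A, higher and 0 lower, against 7.77% of its genes in all, 5% higher and 2.78% lower. The likelihood ratio test of edgeR called KIF1A higher and 0 lower too, against 5.05% of all genes, 2.89% higher and 2.16% lower. The libraries of the conditions did not overlap for 21 of 39 kinesins (53.8%), against 50.5% of all tested genes. In 15 they were higher in 3-D (25.4% of all tested genes) and in 6 lower (25.1%). Leaving out a library also changed the count, but such a fit rests on a lone library in a condition. All differences were small. The log2 fold change, taken throughout as 3-D over 2-D, was below 0.2 in size for 37 kinesins and below 0.1 for 24, and it ran from −0.41 for KIF4B to 0.19 for KIF5A. It was above 0 for 26 of the 39 genes, against 50% of all tested genes. The median was 0.034 for mitotic, 0.030 for transport and 0.038 for other kinesins and −0.00014 for all tested genes, and with scaling to library size alone the 4 medians were −0.030, −0.034, −0.026 and −0.065. The median of the other kinesins was −0.084 without 3-D replicate 1.

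**Figure D3:**
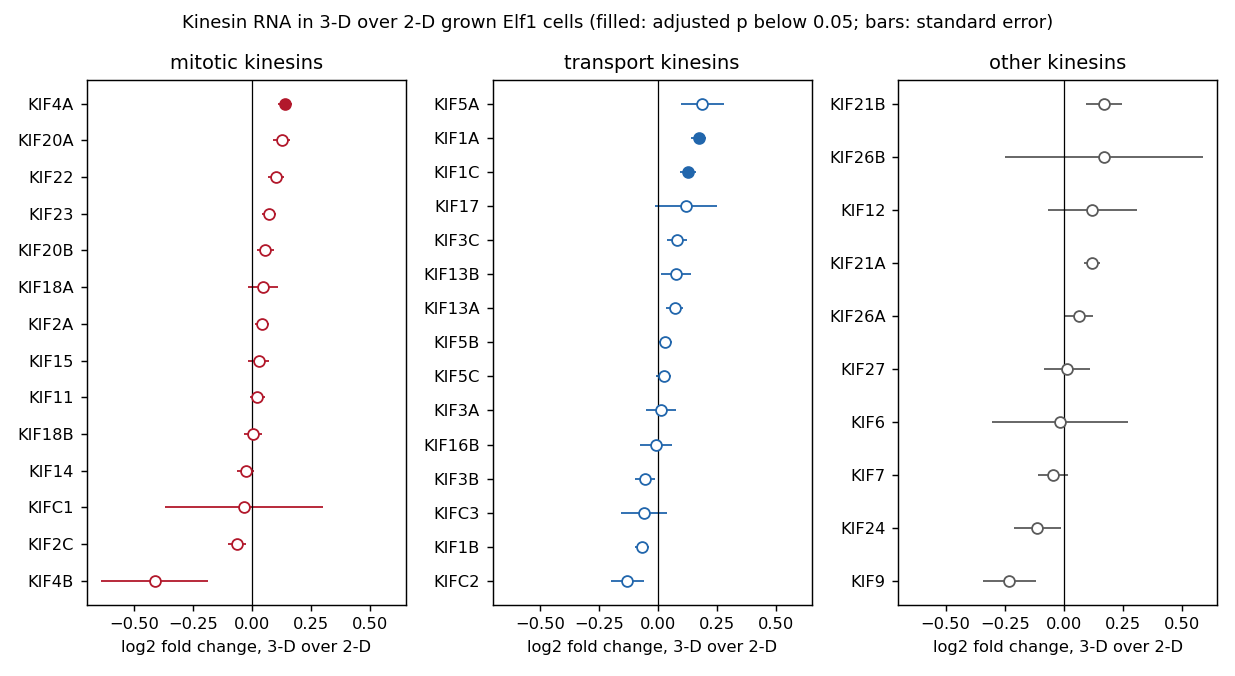
Log2 fold change, 3-D over 2-D (horizontal axis), for each tested kinesin of the mitotic, transport and other classes. Bars are standard errors, and filled points have an adjusted p below 0.05, which KIF4A, KIF1A and KIF1C reached. Most points lie within 0.1 of 0, and the widest bars belong to genes with few counts, such as KIF26B and KIFC1.

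Of the mitotic kinesins, 14 of 15 were tested, 10 had a log2 fold change above 0 and 4 below, and 1 was called, KIF4A. KIF4A (ENSG00000090889.12, chromosome X, 70290104 to 70420886, hg38) is a chromokinesin that binds chromosome arms and, with PRC1, organizes the midzone of the anaphase spindle. Its normalized CPM was 114 and 111 in 2-D and 123 and 125 in 3-D. Both 3-D libraries lay above both 2-D libraries, and the log2 fold change was 0.14 with a standard error of 0.03, a rise of 10.2% (adjusted p = 0.0131). It was positive in all 13 alternative analyses and called in 8 of them. It was not called with DESeq2 (adjusted p = 0.130), edgeR's likelihood ratio test (adjusted p = 0.0764), scaling to library size (adjusted p = 0.154), or without 2-D replicate 1 (adjusted p = 0.0592) or 2-D replicate 2 (adjusted p = 0.197).

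KIF4B (ENSG00000226650.6) is a gene without introns that is nearly identical to KIF4A in sequence. Its transcript aligned to KIF4A over 99.8% of its length at 95.3% identity. Its raw counts were 63 and 59 in 2-D and 28 and 26 in 3-D, and its normalized CPM was 1.83 and 1.91 in 2-D and 1.36 and 1.45 in 3-D. The 3-D libraries lay below the 2-D libraries, opposite to KIF4A, but the log2 fold change of −0.41 with a standard error of 0.23 did not pass (adjusted p = 0.330). Per kilobase, KIF4A exceeded KIF4B by 59.6 and 55.8 times in 2-D and by 86.9 and 82.4 times in 3-D. How reads that match both genes were counted is not given in the sources used here, so the value of KIF4B is uncertain.

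KIF20A (ENSG00000112984.12), also called MKLP2, brings the chromosomal passenger complex to the midzone. Its normalized CPM was 97.8 and 92.7 in 2-D and 103 and 105 in 3-D, with no overlap. The log2 fold change of 0.12 with a standard error of 0.04 missed the threshold (adjusted p = 0.0534). It passed in 5 of 13 alternatives, with adjusted p of 0.0332 without a filter, 0.0383 with a replicate block, 0.0304 with the length and GC offsets, 0.0134 with both and 0.00986 without 3-D replicate 1. KIF23, the motor of the centralspindlin complex, had 118 and 119 in 2-D and 124 and 125 in 3-D, a log2 fold change of 0.07 (adjusted p = 0.173). KIF22, which pushes chromosome arms away from spindle poles, had 81.5 and 79.0 in 2-D and 86.1 and 86.0 in 3-D, a log2 fold change of 0.10 (adjusted p = 0.106). KIF22 and KIF23 passed in no alternative.

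KIF11, also called Eg5, slides antiparallel microtubules apart to make the spindle bipolar and is the mitotic motor many cells depend on. Its normalized CPM was 133 and 139 in 2-D and 139 and 137 in 3-D, so the conditions overlapped (log2 fold change 0.02, adjusted p = 0.770). KIF15, which can share that task, had a log2 fold change of 0.03. The microtubule-shortening kinesin-13 genes had a log2 fold change of 0.04 for KIF2A and −0.07 for KIF2C, which acts at centromeres, and neither passed (adjusted p = 0.505 and 0.376). KIF2C was at 65.4 and 64.2 in 2-D and 61.0 and 62.9 in 3-D, so its 3-D libraries were the lower ones. The kinesin-8 genes KIF18A and KIF18B, which limit microtubule growth at chromosomes and at the cell cortex, had 0.05 and 0.0037. The cytokinesis motors KIF20B and KIF14 had 0.06 and −0.03. For KIF20B, 3-D replicate 1 was at 172 while 3-D replicate 2, at 160.3, was close to the 2-D libraries at 160.1 and 159.7.

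Counts of KIFC1, a minus-end motor that clusters centrosomes, were very low. Its raw counts were 45 and 23 in 2-D and 21 and 18 in 3-D, a mean of 0.337 CPM per kilobase over the libraries, which placed it above KIF2B alone among the mitotic kinesins. Its transcript aligned in full to 2 alternate contigs of chromosome 6, at 99.5% and 100% identity. Whether those contigs were among the authors' mapping targets is not given in the sources used here, and their part in the low count was not tested. KIF2B, a kinesin-13 gene known from testis, had 0 and 1 counts in 2-D and 0 in both 3-D libraries and was not tested. Where the count was 0, an approximate floor of 3 counts equals 0.0887 CPM in 2-D replicate 1. It equals 0.142 and 0.164 CPM in the 3-D libraries.

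All 15 transport kinesins were tested, 10 with a log2 fold change above 0 and 5 below, and 2 were called, both of the kinesin-3 family. KIF1A (ENSG00000130294.16, chromosome 2, 240713761 to 240824293) carries precursors of synaptic vesicles and dense-core vesicles along axons. Its normalized CPM was 212.5 and 212.9 in 2-D and 234 and 246 in 3-D. The 3-D libraries lay well above the 2-D libraries, and the log2 fold change was 0.17 with a standard error of 0.03, a rise of 12.7% (adjusted p = 0.00606). It stayed positive in all 13 alternatives and was called in 10. With length and GC offsets it was 0.09 (adjusted p = 0.0983), 0.09 with the offsets and a replicate block (adjusted p = 0.0932), and 0.11 with scaling to library size (adjusted p = 0.0642).

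KIF1C (ENSG00000129250.12, chromosome 17, 4997950 to 5028401) moves vesicles and RNA in many cell types. Its normalized CPM was 177 and 177 in 2-D and 198 and 189 in 3-D, so here too the conditions did not overlap. The log2 fold change was 0.13 with a standard error of 0.03, a rise of 9.22% (adjusted p = 0.0291). It was positive in all 13 alternatives but called in 6. It was not called with DESeq2 (adjusted p = 0.101), the likelihood ratio test (adjusted p = 0.162), library size (adjusted p = 0.256), the length and GC offsets without or with the block (adjusted p = 0.184 and 0.152), or without 2-D replicate 1 or 2 (adjusted p = 0.189 and 0.211).

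KIF1B, which carries mitochondria and synaptic vesicle precursors, differed the other way. It was at 289 and 283 CPM in 2-D and at 273 and 273 in 3-D, so its 3-D libraries were below its 2-D libraries. The log2 fold change of −0.07 with a standard error of 0.03 did not pass (adjusted p = 0.208), but with scaling to library size it was −0.13 and passed (adjusted p = 0.0146). The level of KIF1B relative to KIF1A per kilobase, which does not depend on the scaling between libraries, was 1.28 and 1.26 in 2-D and 1.10 and 1.05 in 3-D, without overlap and with no test. That of KIF1C relative to KIF1A was 1.74 and 1.74 in 2-D and 1.77 and 1.61 in 3-D, with overlap. By the longest transcripts the ratios of KIF1B were 1.14 and 1.12 in 2-D and 0.981 and 0.935 in 3-D and those of KIF1C 0.888 to 0.977, so which of these genes had the higher level depended on the length used.

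**Figure D4:**
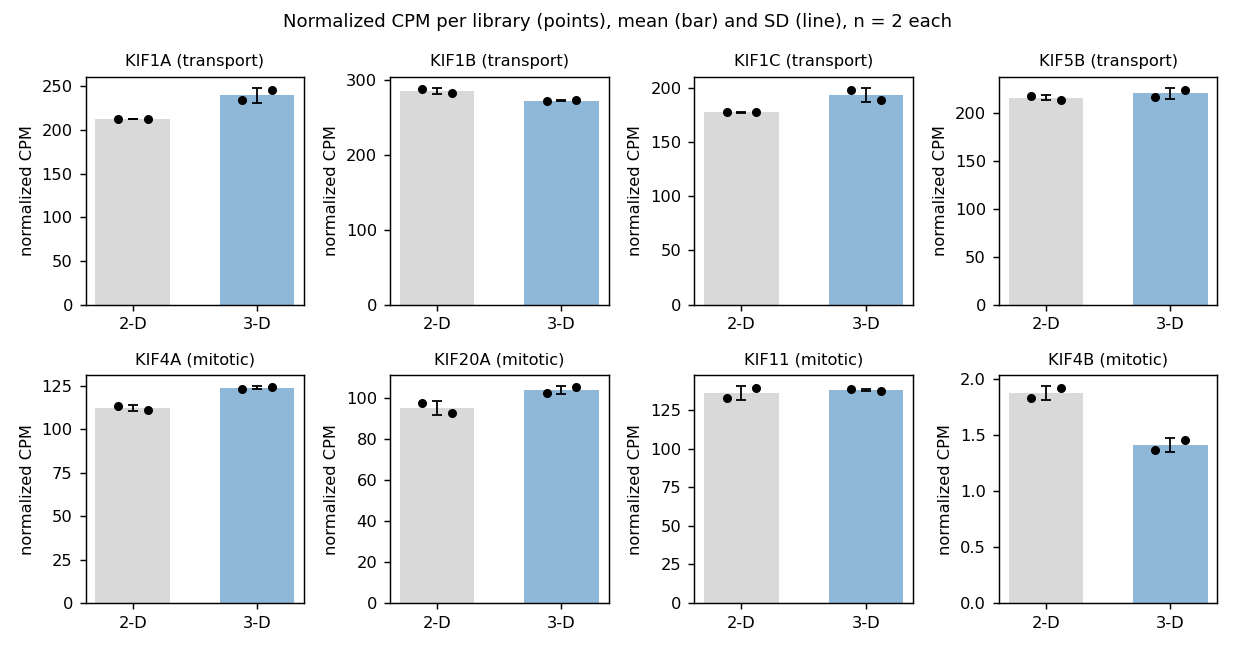
Normalized CPM (vertical axes, from 0) of 8 kinesins by condition. Points are libraries, bars means and lines SD, with n = 2 for each condition. The points of KIF1A, KIF1C and KIF4A lie higher in 3-D, those of KIF1B and KIF4B lower, those of KIF20A higher without passing the test, and those of KIF5B and KIF11 overlap.

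The kinesin-1 heavy chains, which carry mitochondria, lysosomes and RNA with their light chains, changed little. KIF5B was at 218 and 214 CPM in 2-D and 217 and 225 in 3-D, with overlap (log2 fold change 0.03, adjusted p = 0.662). KIF5C, a form known from neurons, was at 93.4 and 96.2 in 2-D and 96.4 and 96.3 in 3-D, a log2 fold change of 0.02 (adjusted p = 0.750). KIF5A, also known from neurons, had the highest log2 fold change of any kinesin. It was at 13.2 and 13.8 in 2-D and 14.2 and 16.5 in 3-D, and its log2 fold change of 0.19 with a standard error of 0.09 did not pass (adjusted p = 0.269). Per kilobase, KIF5B exceeded KIF5C by 12.6 to 13.2 times and KIF5A by 28.4 to 34.7 times over the 4 libraries. By the longest transcripts these were 2.95 to 3.09 times and 13.5 to 16.5 times, so their size depended on the length used. In addition, 66% of the KIF5C transcript aligned to an alternate contig of chromosome 2 at 100% identity. The part of that contig in the KIF5C counts was not tested.

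The heterotrimeric kinesin-2 motor, which drives transport into cilia, pairs KIF3A with KIF3B or KIF3C. KIF3A was at 33.9 and 36.3 CPM in 2-D and 36.7 and 34.03 in 3-D (log2 fold change 0.01). KIF3B was at 58.0 and 56.9 in 2-D and 56.8 and 53.8 in 3-D (−0.05), and KIF3C at 54.2 and 53.8 in 2-D and 58.1 and 56.1 in 3-D (0.08). None passed (adjusted p = 0.941, 0.540 and 0.301 by edgeR's quasi-likelihood test). The level of KIF3A relative to KIF3B per kilobase was 0.521 to 0.577 over the libraries, with overlap, and that of KIF3C relative to KIF3B was 0.892 and 0.903 in 2-D and 0.978 and 0.995 in 3-D, without overlap and with no test. By the longest transcripts the latter was 1.05 and 1.06 in 2-D and 1.15 and 1.17 in 3-D. KIF17, another ciliary kinesin-2, had a log2 fold change of 0.12 at only 6.04 to 7.75 CPM (adjusted p = 0.685).

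Among the endosomal kinesin-3 motors, KIF13A, KIF13B and KIF16B had log2 fold changes of 0.07, 0.08 and −0.0084, and none passed (adjusted p = 0.281, 0.569 and 0.964). The C-terminal motors KIFC2 and KIFC3 had −0.13 and −0.06. KIFC2 was at 25.8 and 26.1 CPM in 2-D and 22.9 and 24.6 in 3-D. Its 3-D libraries were lower, but it did not pass (standard error 0.07, adjusted p = 0.312), and 17.8% of its exon length overlaps FOXH1 on the opposite strand. Whether the counting used the strand is not given in the sources used here. Overlaps on the opposite strand also cover 18.7% of the exon length of KIF2A (DIMT1) and 14.8% of KIF9 (KIF9-AS1). They cover 14% of KIFC1 (RPL12P1), 10.8% of KIF7 (TICRR) and smaller shares of other members.

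Of the other kinesins, 10 of 12 were tested. None was called by edgeR's quasi-likelihood test, DESeq2 or edgeR's likelihood ratio test, against 7.9%, 7.77% and 5.05% of their tested genes. By the first test 2 were higher at an unadjusted p below 0.05, KIF21A and KIF21B, against 11.1% of all tested genes. KIF21A and KIF21B are kinesin-4 relatives that restrain microtubule growth. KIF21A was at 76.3 and 77.7 CPM in 2-D and 83.0 and 84.1 in 3-D, higher in both 3-D libraries, with a log2 fold change of 0.12 and a standard error of 0.03 (adjusted p = 0.0571), and it passed in 4 of 13 alternatives. KIF21B was at 29.5 and 31.3 in 2-D and 31.5 and 37.0 in 3-D, and its log2 fold change of 0.17 (standard error 0.08, adjusted p = 0.226) came mostly from 3-D replicate 2. KIF7, the kinesin of Hedgehog signaling at the tip of the cilium, was at 32.1 and 31.7 in 2-D and 29.8 and 32.0 in 3-D (−0.05, adjusted p = 0.752). Its relative KIF27 had 0.01, and 61.5% of its transcript also aligned elsewhere on chromosome 9 at 97.26% identity.

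KIF26A, a kinesin without ATPase activity, was at 42.5 and 40.5 CPM in 2-D and 40.7 and 46.1 in 3-D, with overlap (0.06, adjusted p = 0.644). Its relative KIF26B had 18 and 18 counts in 2-D and 17 and 7 in 3-D, and a log2 fold change of 0.17 with a standard error of 0.42 (adjusted p = 0.872), too few counts to show a difference of this size. The kinesins of motile cilia were low. KIF9 was at 9.61 and 8.70 CPM in 2-D and 7.35 and 8.31 in 3-D, lower in both 3-D libraries, with a log2 fold change of −0.23 and a standard error of 0.11 (adjusted p = 0.266). The antisense gene KIF9-AS1 covers 14.8% of its exon length. KIF6 had −0.02 at 1.07 to 1.74 CPM. KIF19 had 16 and 7 counts in 2-D and 5 and 3 in 3-D and was not tested. Outside this group, KIF25 had 2 and 1 counts in 2-D and 0 and 2 in 3-D and was not tested either. The centriolar KIF24 and the poorly known KIF12 had log2 fold changes of −0.11 and 0.12 (adjusted p = 0.590 and 0.786).

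The partners of the kinesins were described from lists of their own. Of 18 light chains, adaptors and cargo receptors, all tested, 2 were higher and 0 lower by edgeR's quasi-likelihood test, with a median log2 fold change of 0.0017. Of all tested genes, 4.54% were higher and 3.36% lower. The kinesin-1 light chain KLC2 was at 29.1 and 31.3 CPM in 2-D and 35.2 and 35.6 in 3-D (log2 fold change 0.23, adjusted p = 0.0457). PLEKHM2, which links kinesin-1 to lysosomes, was at 54.8 and 53.8 in 2-D and 59.9 and 62.8 in 3-D (0.17, adjusted p = 0.0246). The lowest was the adaptor APBA1 at −0.25 with a standard error of 0.36 (adjusted p = 0.763). At an unadjusted p below 0.05, 5 of the 18 were higher and 1 lower, against 11.1% and 10.2% of all tested genes. DESeq2 and the likelihood ratio test called 0 of them in either direction, against 7.77% and 5.05% of their tested genes. The count by the quasi-likelihood test also changed with a library left out.

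Of 20 spindle and midzone partners of the mitotic kinesins, 5 were higher and 0 lower by edgeR's quasi-likelihood test, against 4.54% and 3.36% of all tested genes, with a median log2 fold change of 0.050. PLK1, a mitotic kinase that KIF20A binds at the midzone, was at 112 and 108 CPM in 2-D and 128 and 134 in 3-D (0.25, adjusted p = 0.000746). TPX2, the spindle factor that KIF11 and KIF15 bind, was at 207 and 207 in 2-D and 232 and 226 in 3-D (0.15, adjusted p = 0.00986). INCENP of the chromosomal passenger complex had 0.17, the spindle pole protein NUMA1 0.16 and the contractile ring protein ANLN 0.14 (adjusted p = 0.0199, 0.0247 and 0.0122). Both 3-D libraries were above both 2-D libraries in 11 of the 20 listed genes, against 25.4% of all tested genes. In 4 they were below, against 25.1%. PRC1, the midzone partner of KIF4A, was at 2.90 and 2.60 in 2-D and 1.90 and 1.28 in 3-D, a log2 fold change of −0.78 with a standard error of 0.22 that missed the threshold (adjusted p = 0.0520). Its raw counts were 100 and 80 in 2-D and 39 and 23 in 3-D, far below most of the list. Whether reads of PRC1 were lost in mapping or counting was not tested, so its value is uncertain. At an unadjusted p below 0.05, 6 of the 20 were higher and 3 lower, against 11.1% and 10.2% of all tested genes. DESeq2 called 3 higher and 0 lower, against 5% and 2.78% of its genes. The likelihood ratio test called 1 higher and 1 lower, against 2.89% and 2.16% of all tested genes. The count also changed with a library left out.

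Cytoplasmic dynein, with dynactin the main motor toward microtubule minus ends, split between directions. Of its 25 listed genes 23 were tested, 3 were higher and 2 lower in 3-D, against 4.54% and 3.36% of all tested genes, and the median log2 fold change was −0.0038. NDEL1, a dynein regulator, had 0.21, the adaptor BICD1 0.13 and the dynactin subunit DCTN1 0.13 (adjusted p = 0.0130, 0.0199 and 0.0198 by edgeR). The light chains DYNLRB1 and DYNLT1 had −0.45 and −0.24 (adjusted p = 0.0129 and 0.0300). DYNLRB1 was at 12.02 and 12.9 CPM in 2-D and 9.34 and 8.93 in 3-D. The dynein count by edgeR changed with a library left out, and DESeq2 called 0 of these genes, against 7.77% of its genes. At an unadjusted p below 0.05, 6 were higher and 6 lower, against 11.1% and 10.2% of all tested genes. DYNLRB2 and NDE1, with at most 2 counts in a library, were not tested.

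**Figure D5:**
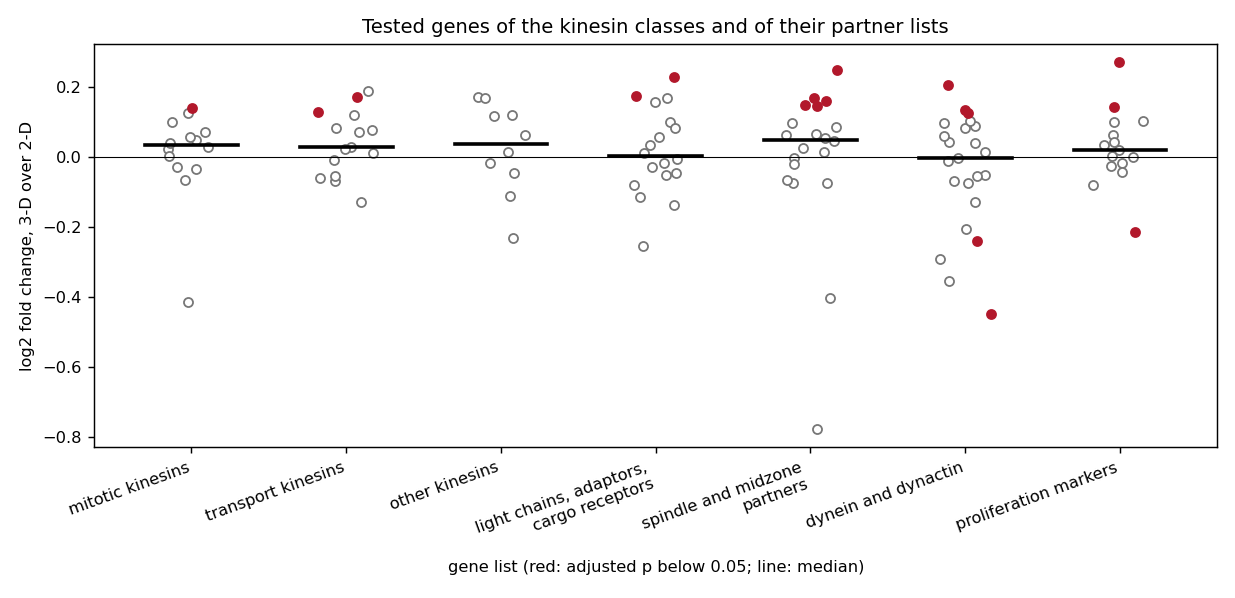
Log2 fold change, 3-D over 2-D (vertical axis), for each tested gene of the 3 kinesin classes, their partner lists, dynein and dynactin, and the proliferation markers. Red points have an adjusted p below 0.05 and black lines are medians, which lie between −0.0038 and 0.050. The lowest point is PRC1 at −0.78, a gene with few counts.

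Marker lists were read beside these values. Of 15 proliferation markers, 2 were higher and 1 lower by edgeR, against 4.54% and 3.36% of all tested genes. By that test MKI67 (0.27, adjusted p = 0.000363) and BUB1B (0.14, adjusted p = 0.0102) were higher and CDK1 (−0.21, adjusted p = 0.00116) was lower. The median was 0.020, and their summed CPM was 3209 and 3190 in 2-D and 3337 and 3312 in 3-D, higher in both 3-D libraries, but 3273 and 3270.0 in 2-D and 3248 and 3254 in 3-D with scaling to library size alone, lower in both. Of 15 neuron and neural progenitor markers, the cells in which KIF1A is best known, 11 were tested. NEFM alone was called, higher in 3-D (0.38, adjusted p = 0.0189 by edgeR), where 4.54% of all tested genes were higher. The highest was ELAVL3 at 0.45 (adjusted p = 0.340) and the lowest SNAP25 at −0.70 (adjusted p = 0.329). The list summed to 82.4 and 81.8 CPM in 2-D and 87.7 and 86.2 in 3-D. NEUROD1 had no counts, and ELAVL4 and SOX1 had too few to be tested. Of 8 motile cilium markers 6 were tested and 0 called, against 7.9% of all tested genes. DESeq2 and the likelihood ratio test also called 0, and 0 passed an unadjusted p below 0.05, against 21.3% of all tested genes. These markers ran from −0.39 for SPAG6 to 0.52 for FOXJ1, summed to between 10.5 and 12.7 CPM over the libraries, and TEKT1 had no counts. Of 9 fibroblast markers 7 were tested, and COL3A1 (0.73), POSTN (0.65), COL1A1 (0.29) and THY1 (0.22) were higher (adjusted p = 0.000704, 0.0181, 0.000779 and 0.00453), 4 of 7 against 4.54% of all tested genes. COL1A2 was lowest at −0.04. That list summed to 542 and 534 in 2-D and 553 and 604 in 3-D, and with scaling to library size alone to 553 and 547 in 2-D and 538 and 594 in 3-D, with overlap, while DCN and LUM, with at most 17 counts, were not tested. The part of other cells or of the cell cycle in the kinesin values was not tested.

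The label of the cells was checked on markers. Of 8 pluripotent cell markers 0 were called by edgeR's quasi-likelihood test and by its likelihood ratio test, against 7.9% and 5.05% of all tested genes. DESeq2 called 1 higher, against 5% of its genes. At an unadjusted p below 0.05, 3 were higher and 2 lower, against 11.1% and 10.2% of all tested genes. These 8 markers summed to 4228 and 4196 CPM in 2-D and 4284 and 4188 in 3-D, and ran from −0.10 for PRDM14 to 0.14 for SOX2. Of 10 naive markers 9 were tested. KLF5 alone was called, higher in 3-D (0.26, adjusted p = 0.00336 by edgeR's quasi-likelihood test), where 4.54% of all tested genes were higher. KLF17, a marker of the naive state, was at 0.465 and 0.941 CPM in 2-D and 1.07 and 0.893 in 3-D (0.51, adjusted p = 0.507). DPPA3 had the lowest log2 fold change at −0.07 (adjusted p = 0.837). DPPA5, with at most 4 counts in a library, was not tested. KLF17 and DPPA5 were near absence in both conditions, and ARGFX was at 0.348 to 0.446 CPM. The rest of the list had higher levels. Over the libraries TFAP2C was at 92.6 to 96.7 CPM, KLF5 at 46.9 to 57.2, TFCP2L1 at 22.1 to 23.8 and DNMT3L at 14.6 to 17.9. KLF4 was at 9.26 to 10.4, SUSD2 at 6.36 to 8.42 and DPPA3 at 5.75 to 7.43.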

How the data were processed

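RNA-seq of 2 libraries of 2-D and 2 of 3-D grown Elf1 cells was used. The authors depleted ribosomal RNA, sequenced paired ends, trimmed reads with Trim Galore 0.6.3, mapped them to hg38 with HISAT2 2.1.0, and deposited raw counts per GENCODE gene from featureCounts 1.6.4, without normalization. A second deposited table, of counts divided by DESeq2 size factors with the authors' fold changes, errors, statistics and p-values (their DESeq2 2.11.40.6), was not used. Totals per library were 33833778 and 30114220 (2-D) and 21154409 and 18276147 (3-D). Counting error and floors of 3 counts cover counting alone. Replicates differed beyond sampling noise (chi-square over its degrees of freedom 2.45 in 2-D, 4.39 in 3-D).

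Of 60564 gene identifiers, 60295 matched GENCODE release 44 (symbols, positions, exon lengths), and the 269 others held 0.121 to 0.123% of counts. Counts were fitted over all genes with edgeR 4.0.16 in R 4.3.3 (TMM, filterByExpr, quasi-likelihood test, condition alone, all 4 libraries, Benjamini-Hochberg). Normalized CPM uses TMM. The biological coefficient of variation was 5.10%. The procedure was also run on simulated counts, whose outcome is not reported here and is no support for the calls. Groups followed the sample labels. Alternatives were DESeq2 1.42.0, edgeR's likelihood ratio test, DESeq2 size factors, library size only, no filter, a minimum of 10 counts for each library, a replicate block, length and GC offsets, both together, and each library left out, where a lone library is taken to vary like the others. Near-identical copies (at least 50% of the longest transcript aligned elsewhere) were found with minimap2 2.31-r1302 against hg38 with alternate contigs. Promoters came from RefSeq. Protein sequence was not used here.

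Members and lists were chosen with earlier results of these data known. Full values are given for called members, for the 3 members of each class with the largest change and the 3 with the highest level, and for the KIF1, KIF3, KIF4 and KIF5 sets. In the partner and marker lists, called genes and the highest and lowest are named. KIF22, KIF23, KIF2C and KIF20B were given values per library after these were seen. Some listed genes are not reported here.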

Additional observations from a re-analysis of the deposited data

How the results depend on the processing

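Counts of called kinesins (3 higher, 0 lower) moved to 1 higher with DESeq2 and with the likelihood ratio test (KIF1A), to 0 higher and 1 lower (KIF1B) with library size only, and to 5 higher with a replicate block, which added KIF20A and KIF21A. By class, mitotic calls (1 higher) were 0 with those 2 tests and with library size only, 2 without a filter, with the block and with the offsets, and 3 with both; transport calls (2 higher) were 1 with those 2 tests, 0 with library size only, which called 1 lower, and 0 with the offsets with or without the block; other calls (0) were 1 with at least 10 counts, with the block and with block and offsets. Light chain and adaptor calls (2 higher, 0 lower) were 0 higher with both tests, library size only and the offsets with or without the block, and 2 lower with library size only and 1 lower with the offsets with or without the block. Spindle partner calls (5 higher, 0 lower) were 3 higher with DESeq2, 1 higher with the likelihood ratio test and with library size only, 3 lower with library size only, and 1 lower with the likelihood ratio test, no filter, at least 10 counts, the block and both together. Dynein calls (3 higher, 2 lower) were 0 and 0 with DESeq2, 1 and 1 with the likelihood ratio test, 0 and 5 with library size only, and 1 lower with the offsets. All-gene calls (1024 and 758) were 511 and 284 with DESeq2, 651 and 488 with the likelihood ratio test and 514 and 1879 with library size only. Of the genes tested, 3.22% were called higher and 2.67% lower with no filter. With at least 10 counts the shares were 4.73% and 4.21%, and with the block 5.42% and 4.19%. They were 4.55% and 3.04% with the offsets, 5.79% and 4.05% with both, and 2.28% and 8.33% with library size only.

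Median log2 fold changes with library size only were −0.034 (all kinesins), −0.030 (mitotic), −0.034 (transport), −0.026 (other) and −0.065 (all genes). With at least 10 counts they were 0.022 (all kinesins), 0.022 (transport) and 0.0068 (other). With the offsets they were 0.049, 0.056 (mitotic), 0.037 (transport) and 0.0064 (all genes), and with block and offsets 0.050, 0.056, 0.037 and 0.0061. For all genes it was −0.021 with DESeq2 and −0.022 with no filter. With each library left out, called kinesins ranged from 1 to 7 higher and 0 to 1 lower, mitotic from 0 to 2, transport from 1 to 3 and other from 0 to 2 higher and 0 to 1 lower, adaptors from 0 to 3 higher, spindle partners from 1 to 6 higher and 0 to 2 lower, dynein from 0 to 3 higher and 0 to 4 lower, and all genes from 560 to 1468 higher and 414 to 1175 lower. For KIF1A the log2 fold change was then 0.14 to 0.21. Medians then ranged from 0.012 to 0.049 (all kinesins), 0.011 to 0.049 (mitotic), 0.019 to 0.061 (transport), −0.084 to 0.086 (other, below 0 without 3-D replicate 1) and −0.0060 to 0.0042 (all genes). Library size only gave another sign for 11 of 39 kinesins, the other alternatives for 0 to 7. The cause of these changes was not tested. Whether same-numbered replicates were paired is not given in the sources used here. Their deviations had a correlation of −0.0079, and the block moved calls from 1782 to 2167 genes. DESeq2 size factors in the edgeR fit changed no kinesin call. Low counts limit KIF2B, KIF19, KIF25, KIF26B and KIFC1. The transcript of KIF26B aligned over 93.4% of its length to an alternate contig of chromosome 1 at 100% identity. The part of alternate contigs in the low counts of KIF26B and KIFC1 was not tested.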

Other observations

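Of the kinesins that the symbol rule does not take, CENPE, which holds chromosomes to spindle microtubules at kinetochores, was at 183 and 194 CPM in 2-D and 206 and 201 in 3-D grown cells. Its libraries did not overlap, but the log2 fold change of 0.11 with a standard error of 0.03 did not pass edgeR's quasi-likelihood test (adjusted p = 0.0747). STARD9, a mitotic kinesin of the centrosome, was at 42.1 and 38.8 CPM in 2-D and 41.8 and 38.6 in 3-D, a log2 fold change of −0.0078 (adjusted p = 0.964). Of these 2 genes, 1 was called higher without a filter, with the length and GC offsets, with the offsets and a replicate block, and without 3-D replicate 2, and 0 in the other 9 alternatives. Over the 39 tested kinesins, which share their 4 libraries, the log2 fold change had a Spearman correlation of 0.267 with exon length, 0.107 with GC content and 0.237 with mean CPM, given as descriptions.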
